A study of Mus musculus with 3 samples.

Results

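The genes described here encode the protein parts of the spliceosome and the RNA-binding proteins that steer it, and were taken from their symbols: every mouse protein-coding gene whose symbol starts with Snrp, Sf3a, Sf3b, Srsf, Prpf or Hnrnp. RefSeq (GRCm38.p6) lists 64 such genes after 2 SR protein genes were set aside, and 59 of them were among the 9822 genes of the count tables. RNA was sequenced from purified platelets, fragments without a nucleus that megakaryocytes release into the blood, of male BALB/c mice that were 20 weeks old and wild type for Nxf1, the main mRNA export receptor. There was 1 group of 3 libraries, replicates 1 to 3, each with a batch number of its own, so sample and batch cannot be told apart. The labels do not say that each library was a separate mouse, so errors measure the spread between samples, which may be technical.

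Splicing removes introns from nuclear pre-mRNA. Small nuclear ribonucleoprotein particles recognise the splice sites, most of them built on a ring of Sm proteins, and the SF3a and SF3b complexes of the U2 particle hold the branch site. PRPF proteins, named after yeast pre-mRNA processing mutants, bring in and remodel the particles that form the catalytic core. SR proteins and hnRNPs bind exons and introns and bias which sites are used, and many hnRNPs also act on mRNA in the cytoplasm. Platelets have no nucleus, yet splicing factors and unspliced transcripts have been described in them.

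The libraries held 25189231 to 26974129 counts, and every pair differed beyond sampling noise. Over all genes replicates 2 and 3 were the closest pair (chi-square per degree of freedom 17.9), and replicate 1 stood apart from both (104 and 99.8). Levels are in CPM, counts per 1000000 counts of the library. In a chi-square of counts the genes with the most counts weigh most. Red cell markers summed to 48872, 5230 and 6827 CPM in replicates 1, 2 and 3, while 68.7% of all genes had their highest CPM in replicate 3. The part of the red cell genes in the distance of replicate 1 was not tested. Levels of different genes are set against each other as length-scaled CPM, which is CPM per 1000 bases of gene length. Where a rank or sum is by CPM, which also grows with gene length, the sentence says so. All 12 platelet marker genes were present, with means over the 3 libraries of 341 CPM or more. B cell markers were lower but all present, and their sum was 286, 280 and 458 CPM in replicates 1, 2 and 3, so a low level here need not stem from platelets. In such bulk samples a change in the number of cells of a type and a change in RNA per cell cannot be told apart.

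Together the 59 genes gave 1154, 1144 and 1390 CPM in replicates 1, 2 and 3, or 0.123% ± 0.0139 of counts (SD, n = 3). In this sum replicates 1 and 2 lay close together and replicate 3 above both. The median gene was at 7.21 ± 2.16 CPM, against 3.88 ± 0.618 CPM for all genes of the tables, and at 3.38 ± 0.547 length-scaled CPM against 1.48 ± 0.221. At a minimum of 1 CPM in all 3 libraries 54 of the 59 were detected, where 77.7% of all genes were. A mean of 10 CPM was reached by 27 of the 59, against 31.0% of all genes. The tables hold 41.6% of RefSeq protein-coding genes, and the 5 genes of these prefixes outside them, Srsf12, Snrpn, Snrpf, Prpf40b and Hnrnpa1l2-ps2, have no level here.

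A pair of genes stood far above the others. Srsf2, which encodes the SR protein SC35, and Hnrnpc, whose product binds uridine-rich stretches of pre-mRNA, made up 41.2%, 42.1% and 34.7% of the counts of the 59 genes in replicates 1, 2 and 3. They ranked first and second in every library by CPM and by length-scaled CPM. By CPM from plain library totals, Srsf2 and Hnrnpc also differed little between libraries, with a coefficient of variation of 1.43% and 4.36%. The median for the 59 genes, most of them at far lower levels, was 21.8%. These coefficients depend on the scaling of the libraries and were not recomputed under other scalings.

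**Figure D1:**
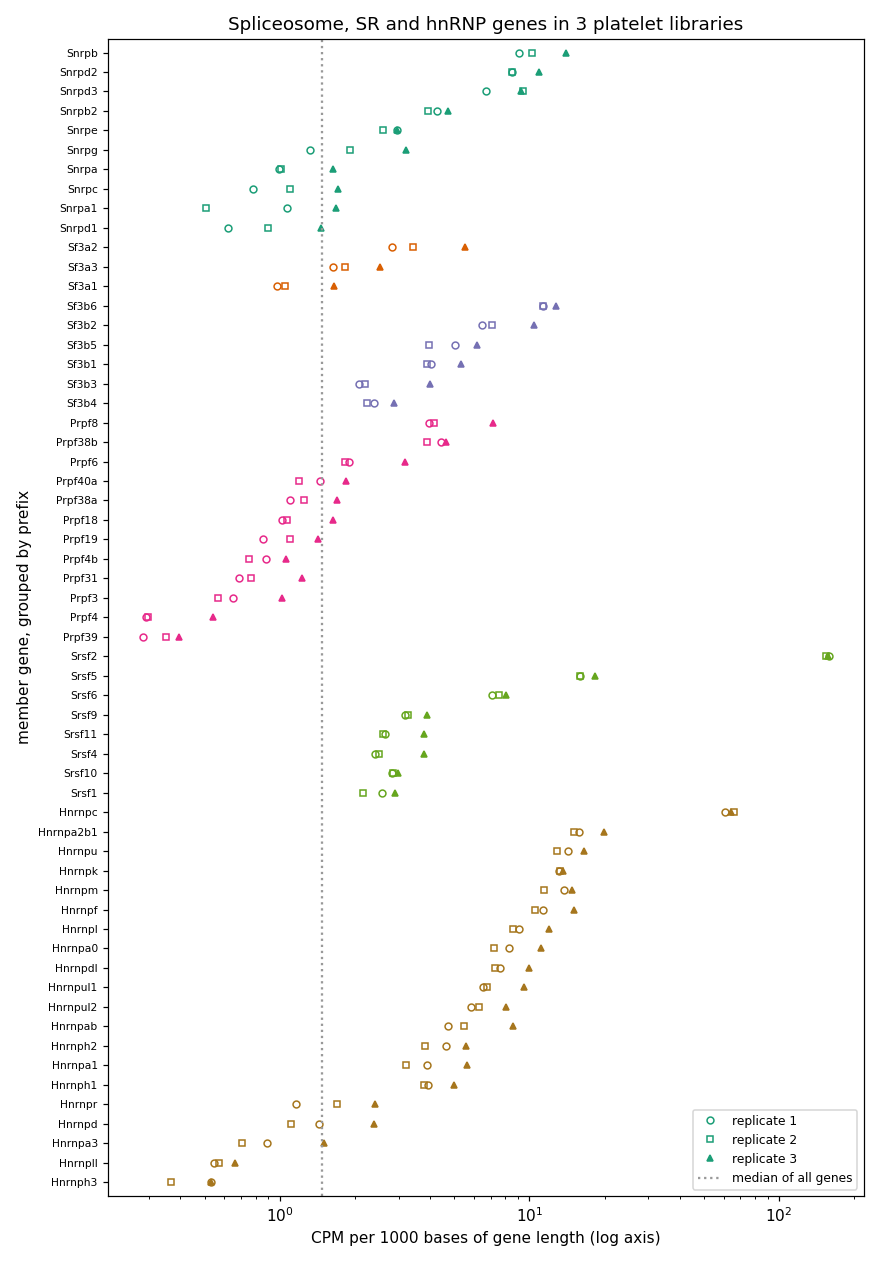
Length-scaled level (CPM per 1000 bases, log axis) of the 59 genes in replicate 1 (open circles), 2 (open squares) and 3 (filled triangles), grouped by prefix and ordered by mean; the dotted line is the median of all 9822 genes. Srsf2 and Hnrnpc lie apart at the right, and for most other genes the triangle is the rightmost symbol.

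The SR protein genes were led by Srsf2 (Entrez gene 20382, chromosome 11, 116849897 to 116853675 in GRCm38), at 302, 294 and 299 CPM in replicates 1, 2 and 3. These rest on 8154, 7402 and 7813 counts. Replicate 1 was highest and replicate 2 lowest, by a small margin, and by mean CPM the gene sat at percentile 96.5 of all genes. Srsf2 alone took 73.9% ± 1.90 of the counts of the 8 SR genes (SD, n = 3). On the length scale it was at 157 ± 2.24, or 9.39 times Srsf5 (log2 ratio 3.23 ± 0.12) and 62.0 times Srsf1 (5.95 ± 0.20), the founding SR protein.

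Srsf5 was at 26.3, 26.3 and 30.4 CPM (16.7 ± 1.42 length-scaled CPM) and Srsf6 at 25.02, 26.8 and 28.6 CPM (7.56 ± 0.511). Both encode SR proteins that promote exon inclusion, and both had their highest value in replicate 3 by a small margin. Srsf9, the lowest SR gene by mean CPM, was at 3.97, 4.09 and 4.86 CPM. The other 4 SR genes, Srsf11, Srsf4, Srsf10 and Srsf1, had means of 6.53 to 15.8 CPM and nearly equal length-scaled means of 2.55 to 3.01. Srsf10, which encodes a splicing repressor, varied little (15.5, 15.6 and 16.4 CPM).

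Exons of Srsf2 overlap those of genes on the opposite strand in GENCODE M21: Mettl23 over 15.6% of its exon bases and Mfsd11 over 9.74%. The strand setting of the counting is not given, so reads there could belong to either gene. The gene length deposited with the Srsf2 counts is 1903 bases, against 2958 exon bases in GENCODE M21, so the counted exons may not hold all of the overlap. Mettl23 and Mfsd11 were counted at only 1.73 and 2.92 CPM.

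The bases just upstream of the listed start of Srsf2 are printed beside those of Srsf6 and Prpf8 for comparison. Srsf2 was the highest of these genes and had the smallest coefficient of variation by plain totals. Srsf6 was another SR gene with small differences by plain totals, and Prpf8 a gene with a large difference between libraries. Each is 100 bases, 5′ to 3′ in the direction of the gene, from the RefSeq promoter table (GRCm38.p6). Srsf2 is at chr11:116853095-116853194 (minus strand), Srsf6 at chr2:162931408-162931507 (plus strand) and Prpf8 at chr11:75486677-75486776 (plus strand). Capitals mark matches on either strand to the SP motif, whose letters are GGGCGG, to the box named for its letters CCAAT, and to the promoter box with the letters TATAAA.
Srsf2: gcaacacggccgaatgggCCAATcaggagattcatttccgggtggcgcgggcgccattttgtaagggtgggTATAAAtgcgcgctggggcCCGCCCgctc
Srsf6: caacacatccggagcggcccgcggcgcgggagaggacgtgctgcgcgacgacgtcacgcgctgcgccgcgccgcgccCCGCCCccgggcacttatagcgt
Prpf8: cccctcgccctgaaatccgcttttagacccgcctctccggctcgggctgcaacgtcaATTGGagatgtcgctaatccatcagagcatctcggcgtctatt
Srsf2 holds all 3 of these motifs in its stretch, Srsf6 the SP motif and Prpf8 the CCAAT box. The start listed for Srsf2 lies inside the gene's RefSeq span, which reaches further upstream.

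Over windows of 250 bases before to 50 after each start, 51 of the 59 genes had 67 windows. The ETS motif CCGGAAG was in 35.8% of them, against 18.5% of the 9753 windows of all genes in the tables and 8.86% of all 32851 RefSeq windows. The SP motif was in 68.7% (62.6% and 35.7% of those windows), the CCAAT box in 46.3% (37.2% and 37.4%) and the last of the 3 motifs marked above in 7.46% (7.16% and 13.6%). Matches were rarer for 3 further motifs. The NRF1 motif, searched as GCATGCGC, was in 2.99% of the windows (5.45% and 2.71%). The YY1 motif, searched as AAGATGGC, was in 4.48% (4.80% and 2.75%). The motif of GATA factors, searched as AGATAA, was in 5.97% (6.63% and 11.2%). Both strands were searched, ETS and SP matches can share bases, and several windows belong to the same gene. The median window of these genes held 25 CpG dinucleotides, against 21 for all genes in the tables and 7 for all RefSeq windows.

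The hnRNP genes were the largest prefix, with 20 of 21 in the tables. They were led by Hnrnpc (Entrez gene 15381, chromosome 14, 52073377 to 52104039), at 173, 188 and 183 CPM, or 63.8 ± 2.78 length-scaled CPM. Replicate 2 was its highest library. Hnrnpc gave 3.80 times the length-scaled level of Hnrnpa2b1 (log2 ratio 1.92 ± 0.22), and was itself exceeded 2.46 times by Srsf2 (1.30 ± 0.08).

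Hnrnpa2b1, whose product also carries mRNA in the cytoplasm, was at 64.3, 61.6 and 81.5 CPM. Hnrnpu, the scaffold attachment factor, was at 52.4, 47.2 and 60.97 CPM. In both genes replicate 3 was highest and replicate 2 lowest. The poly(C)-binding hnRNP gene Hnrnpk was nearly even at 26.1, 26.2 and 27.0 CPM, beside Hnrnpm on the length scale (13.4 ± 0.260 and 13.3 ± 1.74). By group, the genes of the A, B and D types had a median of 6.25 ± 2.04 length-scaled CPM (7 genes), those of the F and H types 4.46 ± 0.763 (4 genes) and the remaining 9 genes 9.89 ± 1.87.

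Close relatives among the hnRNP genes differed widely in level. Hnrnpa2b1 was 4.07 times Hnrnpa1 on the length scale (log2 ratio 2.02 ± 0.20) and 17.1 times Hnrnpa3 (4.10 ± 0.35). Hnrnpl, a repressor that binds CA repeats, was 16.5 times its paralog Hnrnpll (4.05 ± 0.14), which is best known from lymphocytes. Hnrnpf was 2.90 times Hnrnph1 (1.53 ± 0.06), and Hnrnph1 8.98 times Hnrnph3 (3.17 ± 0.25). These orders held in each library. Hnrnph3 was the lowest hnRNP gene, at 1.15, 0.794 and 1.15 CPM, and the only one under 1 CPM in a library.

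Some of these levels are uncertain through copies. At 95% identity over 200 bases or more, 17 of the 59 genes had a transcript copy elsewhere in GENCODE M21, mostly pseudogenes. Hnrnpa3 had copies in 28 other genes, Hnrnpa1 in 9 and Hnrnpf in 8, and Hnrnpc in 1. How reads that map to several places were counted is not given, so the levels of Hnrnpa1, Hnrnpa3 and Hnrnpf are uncertain.

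The Sm proteins form the ring around most spliceosomal snRNAs, U6 excepted. The 6 of their genes that have a level here were spread over an 11.2-fold range on the length scale. Snrpf and Snrpn have no level and do not enter it. Snrpb, which encodes SmB, was highest at 10.2, 11.4 and 15.8 CPM (11.1 ± 2.60 length-scaled CPM). Snrpd2 followed at 4.15, 4.17 and 5.32 CPM (9.32 ± 1.38) and Snrpd3 at 4.04, 5.68 and 5.59 CPM (8.45 ± 1.52). Which of Snrpd2 and Snrpd3 was higher varied by library (log2 length-scaled ratio of Snrpd3 to Snrpd2 -0.15 ± 0.25).

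Snrpe was at 1.45, 1.27 and 1.46 CPM, and Snrpg and Snrpd1 were lower still. Snrpd1 was the lowest of the 59 genes by mean CPM, though not in every library, at 0.519, 0.754 and 1.23, from 14, 19 and 32 counts. Its exact 95% Poisson interval was 0.284 to 0.871 CPM in replicate 1 and 0.838 to 1.73 CPM in replicate 3, for counting error only, so these overlap. Snrpb was 11.7 times Snrpd1 on the length scale (log2 ratio 3.55 ± 0.31). Snrpd1, Snrpd2, Snrpe and Snrpg each have at least 1 near-identical copy, and short genes give few counts, so the spread among Sm genes is uncertain.

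Snrpd3 shares 6.74% of its exon bases in GENCODE M21 (232 of 3442) with Gucd1 on the opposite strand, a gene counted at 395, 409 and 395 CPM. The gene length deposited with the Snrpd3 counts is only 604 bases, so the counted exons may not hold the overlap. If they do, reads of Gucd1 that fall there could have been counted to Snrpd3, which was not tested. Snrpd3 and Hnrnpc were the members with their highest CPM in replicate 2.

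The genes of proteins particular to the U1 or U2 particle had a median of 1.26 ± 0.379 length-scaled CPM (4 genes), against 5.54 ± 0.711 for the 6 Sm genes. Snrpb2 was at 5.23, 4.84 and 5.82 CPM, while Snrpa, Snrpa1 and Snrpc had means of 0.910 to 1.90 CPM. Snrpa1, whose product pairs with that of Snrpb2 on the U2 snRNA, was at 1.33, 0.635 and 2.11 CPM, with the largest coefficient of variation of the 59 genes, 54.2%. Snrpb2 was 4.42 times Snrpa1 (log2 ratio 2.15 ± 0.74), higher in each library. In all, 6 of 10 Snrp genes were detected at 1 CPM in all 3 libraries, and with Hnrnph3 the other 4, Snrpa1, Snrpc, Snrpd1 and Snrpg, were the members below that minimum.

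All 6 SF3b genes and all 3 SF3a genes were detected. Sf3b6, which encodes the small protein that contacts the branch adenosine, was highest on the length scale at 11.8 ± 0.824, with 12.7, 12.7 and 14.3 CPM. Sf3b2 was at 20.9, 22.9 and 33.7 CPM (7.98 ± 2.14) and Sf3b5 at 3.71, 2.90 and 4.52 CPM (5.05 ± 1.10), the lowest SF3b gene by mean CPM. Replicate 3 was the highest library for each, by a wider margin for Sf3b2.

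Sf3b1, the large scaffold subunit that is often mutated in myelodysplastic syndromes, was at 25.02, 24.1 and 33.1 CPM, the highest mean CPM of the SF3b genes, with 4.43 ± 0.799 on the length scale. In replicate 3 Sf3b2 was above it by CPM. Sf3b2 was 1.78 times Sf3b1 per length (log2 ratio 0.83 ± 0.15) and Sf3b6 exceeded Sf3b3 by a log2 ratio of 2.17 ± 0.43. Among SF3a genes, Sf3a2 was at 4.71, 5.72 and 9.23 CPM (3.91 ± 1.42), Sf3a3 at 2.78, 3.10 and 4.29 CPM (2.00 ± 0.469) and Sf3a1 at 4.78, 5.16 and 8.08 CPM (1.22 ± 0.367). Each was highest in replicate 3 and lowest in replicate 1.

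The Prpf genes were the lowest prefix on the length scale, although all 12 in the tables were detected. Prpf8 (Entrez gene 192159, chromosome 11, 75486777 to 75509447), which encodes the scaffold around the catalytic core, had the highest mean, at 29.7, 31.0 and 53.5 CPM (5.09 ± 1.79 length-scaled CPM). Replicate 3 stood clear of the others. Prpf38b, which per length was above Prpf8 in replicate 1, was at 13.3, 11.6 and 13.9 CPM (4.32 ± 0.394) and Prpf6, a bridge between particles, at 5.78, 5.598 and 9.69 CPM (2.30 ± 0.756). Prpf8 was 13.6 times Prpf4 (log2 ratio 3.77 ± 0.04), a gene of the U4 and U6 particle, in a ratio that varied little between libraries. Prpf39 was lowest by mean CPM, at 1.15, 1.43 and 1.61.

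The prefixes were then compared by the median length-scaled CPM of their genes in each library. Hnrnp was highest at 6.18, 6.52 and 9.06 (7.26 ± 1.57, SD, n = 3). Sf3b followed at 4.74 ± 0.930, Srsf at 3.29 ± 0.471, Snrp at 2.49 ± 0.521, Sf3a at 2.00 ± 0.469 and Prpf at 1.19 ± 0.305. This order was the same in each of the 3 libraries, so each of the 15 pairs of prefixes had 1 direction throughout. The difference was widest for Prpf over Hnrnp, at a log2 ratio of -2.62 ± 0.07, and narrowest for Snrp over Sf3a, at 0.32 ± 0.05.

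An exact two-sided sign-flip permutation test over the 3 libraries gave p = 0.25 for every pair (0.25 after Benjamini-Hochberg adjustment over 15 pairs), the smallest p that 3 libraries allow, so no pair could pass 0.05. The order depended on the summary. With the mean of log2 values in place of the median, Srsf was above Hnrnp (log2 ratio 0.32) and above Sf3b (Sf3b over Srsf -0.47). With only genes of 5 CPM or more, Snrp was above Sf3b (0.45 ± 0.29) and Srsf (1.42 ± 0.27). Against Hnrnp it was about level (0.03 ± 0.30), in a direction that differed between libraries. That filter left only Snrpb, Snrpb2 and Snrpd3 of the Snrp genes, so low Snrp genes do not enter these values. By CPM without length scaling 3 pairs turned: Snrp over Sf3a went to -1.76, Snrp over Prpf to -1.25 and Sf3b over Srsf to -0.24. The median Snrp gene is 799 bases long and the median Prpf gene 3489.

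**Figure D2:**
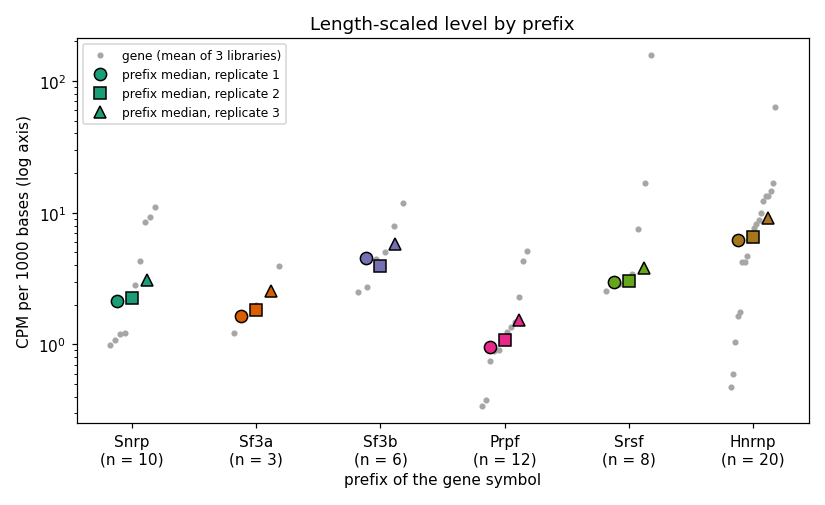
Median length-scaled level (CPM per 1000 bases, log axis) of each prefix in replicates 1 to 3 (large symbols), with the mean of each gene in grey and the number of genes under each prefix. Hnrnp medians run from 6.18 to 9.06 and Prpf medians from 0.950 to 1.53, and the Srsf and Hnrnp groups each hold 1 gene far above the rest.

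By counts rather than medians, the Srsf and Hnrnp genes gave 81.8% ± 2.22 of the counts of the 59 genes (SD, n = 3), at 404 ± 12.2 and 599 ± 73.7 CPM. Prpf genes summed to 89.0 ± 24.0 CPM, Sf3b to 86.2 ± 18.5, Snrp to 34.7 ± 6.82 and Sf3a to 15.9 ± 4.97 CPM. Without Srsf2 the remaining 7 SR genes summed to 106 ± 10.7 CPM, and their median on the length scale was 3.15 ± 0.555. Removing Hnrnpc left an Hnrnp median of 6.90 ± 1.46.

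Between libraries, replicate 3 was the highest for 55 of the 59 genes, where 68.7% of all genes were highest there. The exceptions were Srsf2 and Hnrnph3, highest in replicate 1, and Snrpd3 and Hnrnpc, highest in replicate 2. The median ratio of replicate 3 to the mean of replicates 1 and 2 was 1.38 for the 59 genes, a log2 ratio of 0.47 against 0.26 for all genes. With 1 library on 1 side there is no replicate check on this difference. The count rested on scaling: it was 55 of 59 with totals that leave out the 10 highest genes (65.3% of all genes), 45 of 59 with TMM scaling (45.3% of all genes), which sets the libraries by their middle genes, and 36 of 59 relative to the median gene of each library (32.4%). The members' median log2 ratio was 0.27 with TMM and 0.12 relative to the median gene, against 0.04 and -0.11 for the genes that averaged at least 1 CPM.

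The prefixes differed in this shift. By plain totals the median log2 ratio was 0.70 for Sf3a, 0.62 for Snrp, 0.60 for Prpf, 0.44 for Sf3b, 0.41 for Hnrnp and 0.24 for Srsf. Measured as log2 CPM in replicate 3 minus the mean of the 3 libraries, prefix medians ran from 0.462 (Sf3a) to 0.158 (Srsf). With TMM scaling they ran from 0.334 (Sf3a) to 0.0297 (Srsf). All 12 Prpf, all 6 Sf3b and all 3 Sf3a genes were highest in replicate 3, as were 9 of 10 Snrp, 7 of 8 Srsf and 18 of 20 Hnrnp genes. Prpf8 was 1.77 times as high in replicate 3, Sf3b3 1.87 times, Hnrnpd 1.88 times and Snrpa1 2.14 times, by plain totals. Ratios in that range were also seen for other members, among them Snrpg (1.99), Snrpd1 (1.92), Hnrnpa3 (1.90) and Prpf4 (1.85). These differences between prefixes were not tested.

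The shift also moved with level. Across the 59 genes, which are not independent replicates and share the 3 libraries, the log2 ratio was lower at higher log2 mean CPM (Pearson's r -0.44, Spearman's rho -0.37). Over the 8289 genes that averaged at least 1 CPM the values were -0.35 and -0.37. From 5 to 20 CPM the 21 members had a median log2 ratio of 0.54, against 0.23 for the 2321 genes there, and from 20 to 100 CPM the 15 members 0.42 against 0.10 for 1249 genes. From 1 to 5 CPM the values were closer, 0.49 for 18 members and 0.41 for 3938 genes. Under 1 CPM they were 0.94 for 3 members and 0.43 for 1533 genes. Above 100 CPM Srsf2 and Hnrnpc were at 0.01 and 0.02, against 0.03 for 781 genes.

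**Figure D3:**
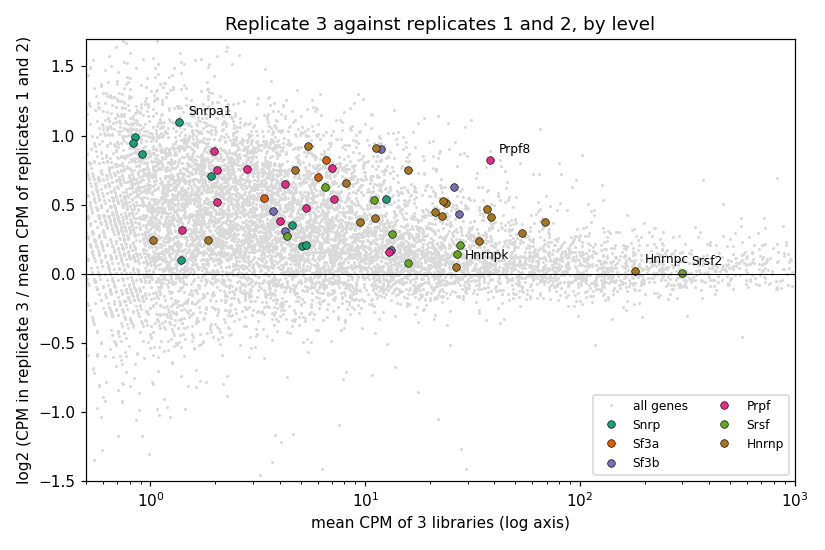
Log2 ratio of CPM in replicate 3 to the mean of replicates 1 and 2 against mean CPM (log axis) for all genes (grey) and the 59 genes coloured by prefix, between 0.5 and 1000 CPM and within the ratios shown. Every coloured point lies above 0 with these plain totals, which does not hold relative to the median gene, and the points of highest CPM, Srsf2 and Hnrnpc, are the closest to 0, followed by Hnrnpk.

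Markers of B and T cells were also higher in replicate 3 by plain totals, by which 68.7% of all genes were highest there. The marker counts that follow were not recomputed under other scalings. All 12 B cell markers were highest in replicate 3, with a median ratio of 1.68 and sums of 286, 280 and 458 CPM, led by Cd74 and H2-Aa. Of 12 T cell markers 10 were in the tables, none of them at 0, and 9 were highest in replicate 3 (median ratio 1.44, sums 34.7, 34.7 and 51.7 CPM). Monocyte markers summed to 1338, 1567 and 1421 CPM, mostly from Lyz2, and 5 of the 8 in the tables were highest in replicate 3 (median ratio 1.26). Neutrophil markers summed to 14.1, 18.9 and 22.5 CPM, and 3 of the 5 in the tables were highest in replicate 3 (median ratio 1.14). The 5 NK cell markers in the tables summed to 7.16, 9.09 and 8.62 CPM (median ratio 1.10), and 3 of them were highest in replicate 3. Platelet markers had a median ratio of 1.09, and 9 of the 12 were highest in replicate 3. The nuclear RNAs Neat1 and Malat1 were level, with sums of 25.6, 25.1 and 24.6 CPM. Red cell markers were highest in replicate 1, at 48872, 5230 and 6827 CPM. The part of these cells in the shift of the splicing genes was not tested.

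**Figure D4:**
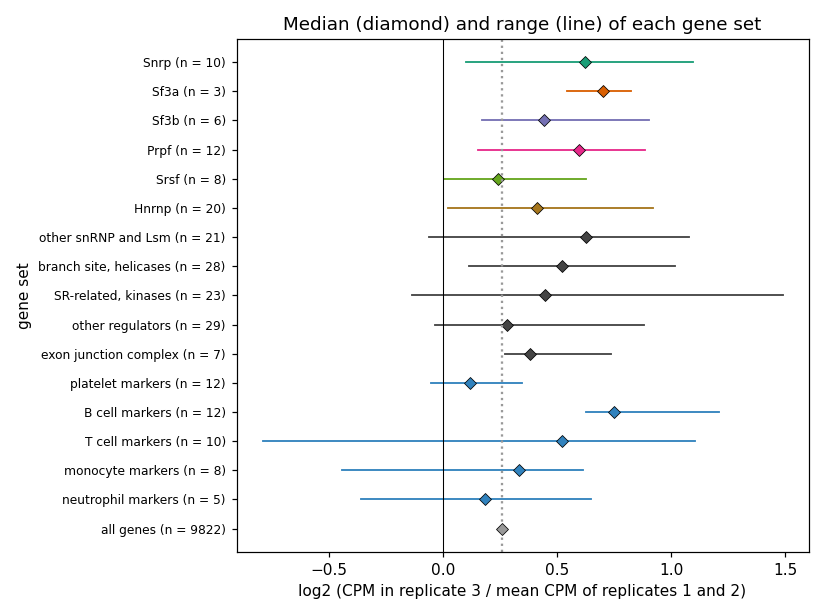
Log2 ratio of CPM in replicate 3 to the mean of replicates 1 and 2 for each prefix, 5 lists of other splicing genes, markers of platelets, B cells, T cells, monocytes and neutrophils, and all genes; diamonds are medians, lines run from the lowest to the highest gene, and the dotted line is the median of all genes. By median the B cell markers lie furthest right, at 0.75, the platelet markers furthest left of the sets drawn, at 0.12, and Srsf, at 0.24, beside all genes, at 0.26.

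No gene of these prefixes was called as varying between libraries beyond the trend for its level. In edgeR's quasi-likelihood fit 0 of the 56 tested had a Benjamini-Hochberg adjusted p under 0.05, where 0.229% of all 8289 genes had, and 5 of 56 had an unadjusted p under 0.05, against 4.29% of all genes. Without replicate 3, 0 of 54 had an unadjusted p under 0.05 in edgeR, against 5 of 57 without replicate 1 and 5 of 56 without replicate 2. The shares of all genes under 0.05 in these 3 fits are not given here. Whether the drop without replicate 3 is particular to the members therefore cannot be told. In the fit to all 3 libraries the 5 were Prpf8 (unadjusted p = 0.0141, adjusted p = 0.966 in edgeR), Hnrnpd, Sf3b3, Hnrnpab and Snrpa1. They were chosen for naming after their values were seen. DESeq2 marked 0 of 56 as dispersion outliers, where it marked only 49 of all 8289 genes. Snrpc, Snrpd1 and Snrpg were below the mean of 1 CPM that the fit required. On simulated counts, with every gene at the trended dispersion, the edgeR test found 0 of 50 genes changed by 2-fold in 1 library. It found 26 of 50 changed by 4-fold, and the ratio of 1.77 in Prpf8 is below both folds.

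Other splicing genes were taken from 5 lists with 121 symbols. Of these, 108 were in the tables and 101 were detected (77.7% of all genes were), with a median of 2.50 ± 0.491 length-scaled CPM, and 0 were called in the edgeR test (0.229% of all genes), with 4 at an unadjusted p under 0.05. Replicate 3 was highest by plain totals for 96 of 108 (68.7% of all genes), a count not recomputed under other scalings. In the list of other regulators, the highest were Mbnl1 and Mbnl2, muscleblind regulators of alternative splicing. Mbnl1 was at 2363, 2110 and 2287 CPM (388 ± 22.3 length-scaled CPM), above Srsf2 in every library, and Mbnl2 at 228, 212 and 215 CPM (47.9 ± 1.90). Both were about level between libraries.

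In the list of further snRNP and Lsm proteins, 18 of 21 genes were detected, led by Lsm3, part of the ring on U6, at 34.6, 38.3 and 35.0 CPM and Txnl4a, a small protein of the U5 particle, at 120, 127 and 130 CPM. On the length scale Lsm3, at 56.9 ± 3.23, was above each of the Sm genes. Of 28 genes for branch site recognition, helicases and later steps 26 were detected, with Bud31 at 29.7 ± 2.71 and Syf2 at 22.0 ± 2.69 length-scaled CPM highest. Among 23 SR-related genes and SR protein kinases 22 were detected, led by Rbm39 at 36.0 ± 2.01 and the kinase gene Clk3 at 7.94 ± 0.417. All 7 exon junction complex genes in the tables were detected, at 1.72 ± 0.302 in the median, with Magoh at 7.27 ± 1.40 and Eif4a3 at 2.39 ± 0.524.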

How the data were processed

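RNA was measured in 3 libraries of 1 group. The authors deposited raw counts of reads per Entrez gene, with a gene length, per the file headers. The submitters' processing notes name CASAVA 1.8.2, Subread, featureCounts, edgeR 3.11.5 and build mm10; for annotation, strand, multi-mapping and gene filter: not given in the sources used here. Symbols came from RefSeq GRCm38.p6 (9636 genes matched, 186 not). Here CPM used the plain total of counts.

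The spread between libraries was tested with edgeR 4.0.16 (limma 3.58.1, R 4.3.3) on the 8289 genes averaging at least 1 CPM: an intercept, TMM scaling (factors 0.954, 0.958 and 1.09), a one-sided F test of each quasi-likelihood dispersion over the trend, and Benjamini-Hochberg adjustment over all genes. Tested on simulated data (8289 genes, 50 changed per fold in 1 library), it found 0, 26, 49 and 50 of 50 at 2, 4, 8 and 16-fold, with 0 false calls. Every simulated gene had the trended dispersion for its level, without further differences between genes. Detection and false calls may therefore be worse in the real data.

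Values in every library are given for the 3 highest genes of each prefix per length, the lowest by mean CPM and any called. Of each other splicing list the 2 highest per length are named. Members and lists were chosen with earlier results of these data known. The 2 SR genes set aside are not reported here. Alternatives covered normalization (DESeq2 1.42.0), filters, detection minimums, length scaling and left-out replicates. Overlaps and copies came from GENCODE M21 (blastn). Python 3.11.15, NumPy 2.4.6, pandas 2.3.3, SciPy 1.17.1 and matplotlib 3.10.9 were used.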

Additional observations from a re-analysis of the deposited data

How the results depend on the processing

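No paired analysis was possible because there is 1 group. The count of members called for spread stayed at 0 under all 8 alternatives. Over all genes it was 19 of 8289, against 28 of 8289 with DESeq2 size factors and 11 of 8289 with plain totals. It was 23 of 9822 with no filter, 11 of 4351 at a mean of 5 CPM and 49 of 8289 as DESeq2 dispersion outliers. Without replicate 1, 2 and 3 it was 1 of 8394, 29 of 8406 and 32 of 8003. With shares this small over all genes, a count of 0 says little about the members. Members detected were 54, but 32 at 5 CPM (40.7% of all genes); leaving out a replicate gave 54 to 56. Of 90 recomputed prefix differences 8 reversed. Without length scaling these were Snrp over Sf3a (-1.76), Snrp over Prpf (-1.25) and Sf3b over Srsf (-0.24). With the mean of log2 values they were Sf3b over Srsf (-0.47) and Srsf over Hnrnp (0.32). With members of 5 CPM or more only they were Snrp over Sf3b (0.45), over Srsf (1.42) and over Hnrnp (0.0295 ± 0.302). The last of these was about level, in a direction that differed between libraries. Relative to the median gene of each library, a scaling added after seeing the data, members highest in replicate 3 went from 55 to 36, and 6 median shifts that were small reversed: Snrp in replicate 2 (0.00542), Sf3b in replicate 1 (0.0249), Srsf in replicates 1, 2 and 3 (0.0294, 0.0450 and -0.0676) and Hnrnp in replicate 1 (0.0125); the cause was not tested. Low counts limit the Snrp genes most.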
